A study of Rattus norvegicus with 90 samples.

Results

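Among 40071 rat transcripts measured in liver, kidney, and heart, 386 were abundant at similar levels in the kidney and heart of vehicle-treated rats while being scarce in their liver, and the 150 most abundant of these are described here. A transcript was chosen when its mean TPM, an abundance scaled by transcript length and library, differed by no more than 4-fold between kidney and heart and was in both at least 10 times the liver mean plus 0.1 TPM. The 150 were those with the highest smaller mean of kidney and heart. The comparisons below ask whether the liver gained these transcripts after thioacetamide.

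Male, young adult Sprague-Dawley rats carrying a jugular catheter received one intraperitoneal injection of saline vehicle (3 ml/kg), a low dose of thioacetamide (25 mg/kg), or a high dose (100 mg/kg), and the organs were taken 8 or 24 h later. The paper set its low dose at the largest amount that might injure organs mildly or not at all. The liver sections it shows came from other rats, at a later time after the injection. Each of the 18 groups of organ, dose, and time held 5 samples, 1 from each rat, so that p-values measure the spread between rats, and the 3 organs came from the same animals. The rats studied at 8 and 24 h also differed in the clock time of the injection and in access to food, and these differences cannot be told apart from the time itself. RNA came from liver tissue and from kidneys and hearts powdered whole, and fewer cells of a type and less RNA per cell cannot be told apart in such samples.

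Kidney and heart are rich in mitochondria and draw much of their energy from fatty acids, lactate, and ketone bodies, and the liver releases ketone bodies that it does not itself burn. Several enzymes and structural proteins exist in forms that muscle, kidney, and other organs share and that adult hepatocytes make little of. Thioacetamide is a hepatotoxicant that liver enzymes convert into reactive oxides, which damage the hepatocytes around the central vein, and inflammatory cells then enter the injured lobule. The deposited tables identify transcripts by Ensembl number and do not pair these numbers with genes, so the function of each transcript described here is not stated.

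The libraries held between 16332764 and 36303248 estimated counts each. Library MS-1, labeled as vehicle liver at 24 h, was nearly identical to library MS-9, labeled as low-dose liver at 8 h: of 15797 transcripts with at least 10 counts in either, 99.96% agreed within 1 count. MS-1 was left out of the choice of members and of the main tests, which leaves 4 vehicle livers at 24 h, and MS-9 was kept. Library MS-91, the fourth replicate of the high-dose livers at 24 h, had a median of 2.63 CPM over 150 transcripts abundant in heart alone, against 0.173 to 0.748 CPM in the other livers. Libraries MS-23 (low dose, 24 h) and MS-94 (low dose, 8 h) had medians of 2.52 and 1.91 CPM over 150 transcripts abundant in kidney alone, against 0.572 to 1.56 CPM in the other livers. CPM here are counts divided by library sizes that were scaled by the TMM method within each organ, an abundance that, unlike TPM, does not account for transcript length.

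In vehicle rats, the median of the members' means was 0.687 TPM in the liver, 19.2 TPM in the kidney, and 20.9 TPM in the heart. These values chose the members and are given as a description. The kidney means ran from 7.32 to 821 TPM and the heart means from 7.54 to 2105 TPM, and 72 members were higher in the kidney and 78 in the heart. Kidney and heart lay within 2-fold of each other for 98 members. In the vehicle livers, 95 members had a mean under 1 TPM, 8 had a mean of at least 10 TPM, and 5 were listed at 0 in every library.

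The smaller of the kidney and heart means exceeded the offset liver mean by 10.2- to 542-fold, with a median of 18.7-fold, and 26 members lay between 10- and 12-fold. The last transcript inside the limit of 150 had a smaller mean of 7.32 TPM and the first outside it 7.28 TPM. The closest transcript that missed the ratio reached 9.745, and 43 transcripts as abundant as the members had ratios between 8 and 10. The members had a median length of 2280 bases, compared with 1730 bases for the 5683 transcripts that were at least as abundant in both kidney and heart, and 7 members were shorter than 150 bases.

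**Figure D1:**
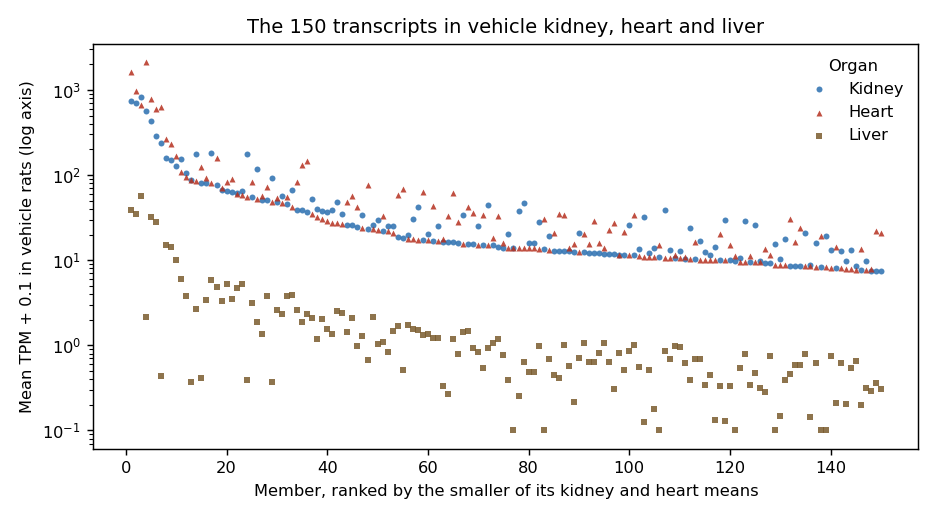
Mean TPM plus 0.1 of each of the 150 members in vehicle kidney (circles), heart (triangles), and liver (squares) on a log axis, ordered by the smaller of the kidney and heart means. The liver points lie below both others for every member, by design of the rule, and the first member reached 746 TPM in kidney, 1612 TPM in heart, and 39.1 TPM in liver.

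The first member by the rule, ENSRNOT00000080988 (1442 bases), shows the pattern at high counts. In the vehicle livers it measured 59.7, 58, 59.3, 61.1, and 56.01 CPM at 8 h and 66.6, 62.3, 58.4, and 60.4 CPM at 24 h. In the high-dose livers it measured 142, 191, 198, 185, and 182 CPM at 8 h and 240, 312, 190, 167, and 264 CPM at 24 h. Every high-dose library stood above every vehicle library at both times. The log2 fold change against vehicle was 1.64 ± 0.11 (SE) at 8 h (edgeR quasi-likelihood test, Benjamini-Hochberg adjusted p = 2.67e-06) and 1.87 ± 0.18 at 24 h (edgeR adjusted p = 2.96e-05).

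After the low dose, ENSRNOT00000080988 measured 97.8 to 175 CPM at 8 h and 104.9 to 152 CPM at 24 h, so that the low-dose libraries also lay above all vehicle libraries. Its log2 fold change against vehicle was 1.10 ± 0.16 at 8 h (edgeR adjusted p = 0.000464) and 0.98 ± 0.13 at 24 h (edgeR adjusted p = 0.000473). The high dose exceeded the low dose at 24 h by 0.92 ± 0.18 on the log2 scale (edgeR adjusted p = 0.00368), and at 8 h the difference of 0.52 ± 0.16 did not pass the threshold (edgeR adjusted p = 0.0574). In the vehicle kidney and heart at 24 h it stood at 1008 ± 106.3 (SD, n = 5) and 2124 ± 57.2 CPM (SD, n = 5).

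In the liver, 48 of the 150 members rose and 2 fell 24 h after the high dose, by an edgeR adjusted p at or below 0.01 together with a log2 fold change of at least 0.866. That is 32% of the members higher and 1.33% lower, and among all 17137 transcripts tested 13.2% were called higher and 13.6% lower. The filter on low counts removed 20 members, and of the 97 that would have passed it on the vehicle libraries alone, 38 rose. Over all 150 members, the median log2 ratio of mean CPM (each mean plus 0.1) was 0.79, against 0.08 over all transcripts tested. In 64 members, 42.7% of the 150, every high-dose liver lay above every vehicle liver, and this held for 25.4% of all transcripts tested.

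The vehicle livers of this comparison had helped to set the ceiling that a member could reach in the liver. When the members were chosen by the same rule from the vehicle samples at 8 h alone, 136 of the 150 stayed the same, and 46 rose and 2 fell at 24 h. Without MS-91, whose level of heart-alone transcripts was raised, 47 members rose and 4 fell. The share of counts on genomic intervals was 20.6% and 25.0% in vehicle replicates 3 and 5, 7.64% and 8.27% in the other vehicle livers, and 6.17% to 14.8% in the high-dose livers, and with this share as a covariate 37 members rose and 2 fell.

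**Figure D2:**
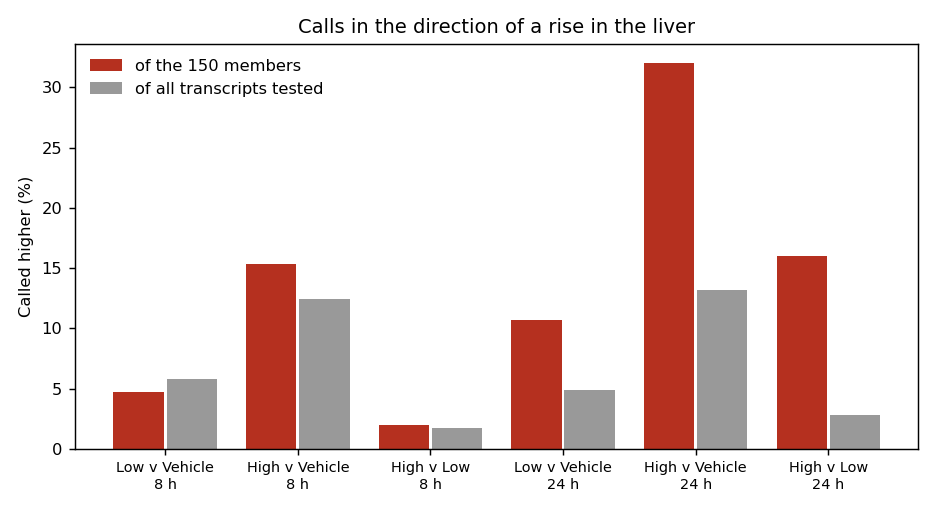
Percent of the 150 members (red bars) and of all transcripts tested (gray bars) called higher in each of 6 liver comparisons, each bar starting at 0. The members stand at 32% against 13.2% for high dose against vehicle at 24 h and at 16% against 2.76% for high against low dose at 24 h, and at 8 h after the low dose they stand at 4.67% against 5.78%.

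The 48 members that rose at 24 h had log2 fold changes from 0.88 to 4.16, with a median of 1.81, and 20 of them reached at least 2 and 5 at least 3. These log2 fold changes, from counts, were set against the log2 gap in mean TPM between vehicle liver and the lower of kidney and heart. The gap used vehicle rats of both times and the liver mean plus 0.1 TPM. The fold changes covered 21.5% to 97.2% of it, with a median of 42.4%. On these mixed scales none reached the whole gap, and 16 covered at least 50% of it. The rule had made every gap at least 10-fold, and a call needed a log2 fold change of at least 0.866. These shares are therefore partly set by the rule and are given as a description. The scales differ: the median log2 ratio of all transcripts tested was 1.05 in TPM and 0.08 in CPM. These 48 were similar in length to the 80 tested members that were not called, with medians of 2486 and 2530 bases. Of the 48, 21 were higher in kidney and 27 in heart in vehicle rats, and of the 80 these numbers were 41 and 39. The 20 members that were not tested had a median of 0.0714 TPM in the vehicle liver, and 6 of them were shorter than 150 bases.

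The largest fold change was that of ENSRNOT00000010620 (2622 bases), which had 7.92 TPM in vehicle kidney, 14.1 TPM in heart, and 0.108 TPM in liver. It measured 0.0615, 0.491, 0.290, and 0.253 CPM in the vehicle livers at 24 h and 5.05, 6.44, 5.04, 3.65, and 5.49 CPM in the high-dose livers. All high-dose libraries were above all vehicle libraries, with at least 91 counts against at most 8. It passed the filter on low counts through the high-dose livers and would not have passed on the vehicle livers, so that a test was made only because it was high there. Its log2 fold change was 4.16 ± 0.41 (SE, edgeR adjusted p = 2.91e-05). With MS-1 included under its label, in which it stood at 12.2 CPM, the log2 fold change fell to 0.98 and was not called (edgeR adjusted p = 0.486).

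Next by fold change among the members named at 24 h was ENSRNOT00000074951, which rests on few counts. It had 2 counts in all in the 4 vehicle livers, 3 of which were at 0, and 76 counts in the 5 high-dose livers, which measured 0.821, 0.311, 0.261, 0.922, and 0.404 CPM. The ratio of the counts per library size was 31.2, with an exact 95% interval from 8.35 to 262 that covers counting error alone. The groups did not overlap. It too passed the filter through the high-dose livers alone, and its call was lost with the interval share as a covariate and without vehicle replicate 2, 3, or 5.

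Both members that fell at 24 h after the high dose did so from low levels. ENSRNOT00000028540 measured 1.35, 0.614, 0.871, and 1.01 CPM in the vehicle livers and 0.274, 0.467, 0.232, 0.241, and 0.248 CPM in the high-dose livers, with no overlap. It passed the filter only through the vehicle livers. Its log2 fold change was -1.74 ± 0.37 (edgeR adjusted p = 0.00265), and it missed the threshold with MS-1 included (adjusted p = 0.0187). ENSRNOT00000006947 measured 2.79 to 4.12 CPM in the vehicle livers and 1.44 to 1.96 CPM in the high-dose livers, a log2 fold change of -0.94 ± 0.21 (edgeR adjusted p = 0.00347). On the TPM scale its direction reversed.

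At 24 h after the low dose, 16 members rose and none fell by edgeR, 10.7% of the 150, with 4.89% of 16754 transcripts called higher and 4.15% lower. The filter on low counts would have passed 98 members on the vehicle livers alone, and of these 15 rose. At an unadjusted p under 0.05 stood 46 members, 30.7% of the 150, against 42.7% of all transcripts tested. DESeq2 called 21 higher and 1 lower, and 6.7% and 5.35% of all transcripts tested. ENSRNOT00000049774 measured 0.860, 1.53, 1.16, and 1.12 CPM in the vehicle livers and 3.89, 6.86, 4.21, 7.51, and 4.15 CPM in the low-dose livers, a log2 fold change of 2.17 ± 0.29 (edgeR adjusted p = 0.000604). The low-dose libraries were all above the vehicle libraries. ENSRNOT00000005033 measured 1.29 to 2.38 CPM in the vehicle livers and 5.58 to 8.88 CPM in the low-dose livers, again without overlap, and its log2 fold change was 2.04 ± 0.22 (edgeR adjusted p = 0.000209). In 30 members, 20% of the 150, every low-dose liver was above every vehicle liver, which held for 14.9% of all transcripts tested.

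The count at the low dose depended on the libraries and the scale. It was 5 with MS-1 included, 8 with the interval share as a covariate, and 14 with members chosen from the vehicle samples at 8 h alone. On log2(TPM + 1) with limma it was 33, on a scale where the median log2 ratio of all transcripts tested was itself 0.79 in place of 0.03 on CPM.

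High against low dose at 24 h used none of the samples that chose the members. Here 24 members were higher at the high dose and 1 was lower, 16% and 0.667% of the 150, compared with 2.76% and 3.84% of the 17101 transcripts tested. The filter on low counts would have passed 114 members on the low-dose livers alone, and of these 22 were higher and 1 was lower. ENSRNOT00000077406 and ENSRNOT00000016991, named after their values were seen, had identical values in every library, so that 2 of the 24 are 1 measurement. In 44 members, 29.3% of the 150, every high-dose liver was above every low-dose liver, which held for 9.91% of all transcripts tested. The median log2 ratio of mean CPM was 0.47 over the 150 members and 0.04 over all transcripts tested. Of the 24 members, 18 were also among those that rose against vehicle, which share the high-dose samples.

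The member with the largest difference was ENSRNOT00000011580 (2653 bases). It measured 6.59, 6.04, 3.81, 7.51, and 4.54 CPM in the low-dose livers and 31.5, 36.01, 18.5, 18.4, and 49.5 CPM in the high-dose livers, a log2 fold change of 2.42 ± 0.30 (SE, edgeR adjusted p = 0.000977). The lowest high-dose library was above the highest low-dose library, and the vehicle livers at 24 h lay at 1.51 to 4.55 CPM. ENSRNOT00000068216, with 86.9 TPM in vehicle kidney and 87.8 TPM in heart, measured 0.278 to 1.01 CPM in the low-dose livers and 3.99, 3.21, 2.58, 2.21, and 4.53 CPM in the high-dose livers. Its log2 fold change was 2.28 ± 0.34 (edgeR adjusted p = 0.00161), and it passed the filter through the high-dose livers alone.

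The one member that was lower at the high dose was ENSRNOT00000045048, at 1.33 to 2.87 CPM after the low dose and 0.310 to 1.22 CPM after the high dose (log2 fold change -1.90 ± 0.40, edgeR adjusted p = 0.00532). Its vehicle livers at 24 h spanned 0.921 to 4.92 CPM and overlapped both. The number called in this comparison dropped without single libraries, to 13 without high-dose replicate 2 (MS-6) or 5 (MS-26), 14 without low-dose replicate 1, and 10 without low-dose replicate 3, and none of these was lower at the high dose. Without MS-91 and MS-23 it stayed at 24 higher and 1 lower.

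**Figure D3:**
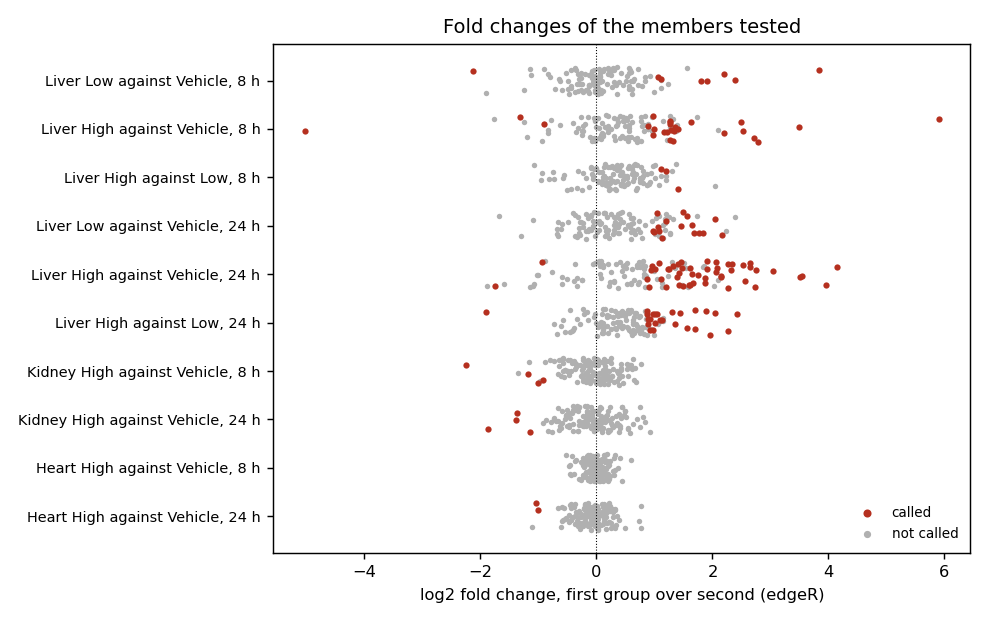
Log2 fold change from edgeR of each member tested in 10 comparisons, with those called in red and the others in gray, spread vertically within a comparison for display. In the liver at 24 h the points lie mostly to the right of 0, with 48 members called higher for the high dose against vehicle, and in kidney and heart the few called members lie to the left.

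At 8 h after the high dose, 23 members rose and 3 fell, 15.3% and 2.0% of the 150, and among 16468 transcripts tested 12.4% were called higher and 7.75% lower. The median log2 ratio of mean CPM over all 150 members was 0.37, against -0.04 over all transcripts tested. In 27 members, 18% of the 150, every high-dose liver was above every vehicle liver. This held for 26 of the 118 members tested and for 18.3% of all transcripts tested. Of the 100 members that would have passed the filter on the vehicle livers alone, 20 rose. With members chosen from the vehicle samples at 24 h alone, 23 rose and 5 fell. ENSRNOT00000010620 again had the largest rise, from 0.0986, 0.709, 0.360, 0.340, and 0.287 CPM in the vehicle livers to 8.53, 20.4, 16.1, 12.3, and 47.8 CPM in the high-dose livers. The log2 fold change was 5.90 ± 0.60 (SE, edgeR adjusted p = 2.42e-05). As at 24 h, it passed the filter on low counts through the high-dose livers alone.

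ENSRNOT00000015583 rose at 8 h from 7 counts over the 5 vehicle livers, a pair of them at 0, to 99 counts over the 5 high-dose livers, a ratio of 14.1 per library size with an exact 95% counting interval from 6.60 to 36.02. It passed the filter through the high-dose livers alone. At 24 h it stood at 0.124 to 0.311 CPM after the high dose. ENSRNOT00000001118, which passed only through the vehicle livers, fell at 8 h, from 0.927 to 2.27 CPM in the vehicle livers to 0 in 4 of the 5 high-dose livers and 0.212 CPM in the fifth (edgeR adjusted p = 0.0006). Its counts summed to 165 in vehicle and 5 in high-dose livers, a ratio of 33.1 with an exact 95% counting interval from 13.9 to 103.2. ENSRNOT00000009627 went from 0.937 to 2.38 CPM in vehicle to 0.490 to 0.765 CPM, a log2 fold change of -1.32 ± 0.33 (edgeR adjusted p = 0.00705) that lost its call in 8 of the fits that left out a single library.

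At 8 h after the low dose, 7 members rose and 1 fell, 4.67% and 0.667% of the 150, while 5.78% of 16341 transcripts were called higher and 4.1% lower, so that the share of members that rose was near that of all transcripts. The filter on low counts would have passed 96 members on the vehicle livers alone, and of these 5 rose and 1 fell. In 9 members, 6% of the 150, every low-dose liver was above every vehicle liver, a smaller share than the 14.4% of all transcripts tested. ENSRNOT00000010620 measured 12.2, 1.94, 4.57, 5.13, and 2.01 CPM in the low-dose livers, all above the vehicle livers, a log2 fold change of 3.84 ± 0.63 (edgeR adjusted p = 0.000994). The first value is that of MS-9, and without it the log2 fold change was 3.23 ± 0.51 (edgeR adjusted p = 0.00165). This member passed the filter through the low-dose livers alone. ENSRNOT00000029660 measured 2.49 to 4.88 CPM in the vehicle livers and 38.9, 7.11, 15.4, 14.7, and 15.2 CPM in the low-dose livers, a log2 fold change of 2.39 ± 0.41 (edgeR adjusted p = 0.00125). The one fall was that of ENSRNOT00000091389, which passed the filter only through the vehicle livers, from 2.94 to 5.38 CPM in vehicle to 0.407 to 1.71 CPM (log2 fold change -2.13 ± 0.43, edgeR adjusted p = 0.00303). Without MS-9, 5 members rose and 1 fell.

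High against low dose at 8 h gave 3 members higher and none lower by edgeR, 2.0% of the 150, against 1.73% of 16818 transcripts called higher and 0.666% lower. The filter on low counts would have passed 104 members on the low-dose livers alone, among them these 3. At an unadjusted p under 0.05 stood 48 of the 120 members tested, 32% of the 150, against 28.8% of all transcripts tested. ENSRNOT00000028793, 1 of the 8 members with at least 10 TPM in the vehicle liver, measured 44.98, 45.8, 40.9, 38.9, and 53.8 CPM after the low dose and 94.9, 141, 98.4, 141, and 113 CPM after the high dose, without overlap (log2 fold change 1.40 ± 0.14, edgeR adjusted p = 0.00101). Its vehicle livers lay at 38.3 to 65.5 CPM, among the low-dose values. ENSRNOT00000015836 measured 1.43 to 2.50 CPM after the low dose and 2.96 to 6.32 CPM after the high dose (log2 fold change 1.19 ± 0.22, edgeR adjusted p = 0.00746). The count was 10 with DESeq2, all higher at the high dose, with 3.44% of all transcripts called higher, 0 with limma on TPM, and 1 without high-dose replicate 2 or low-dose replicate 2 or 4.

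**Figure D4:**
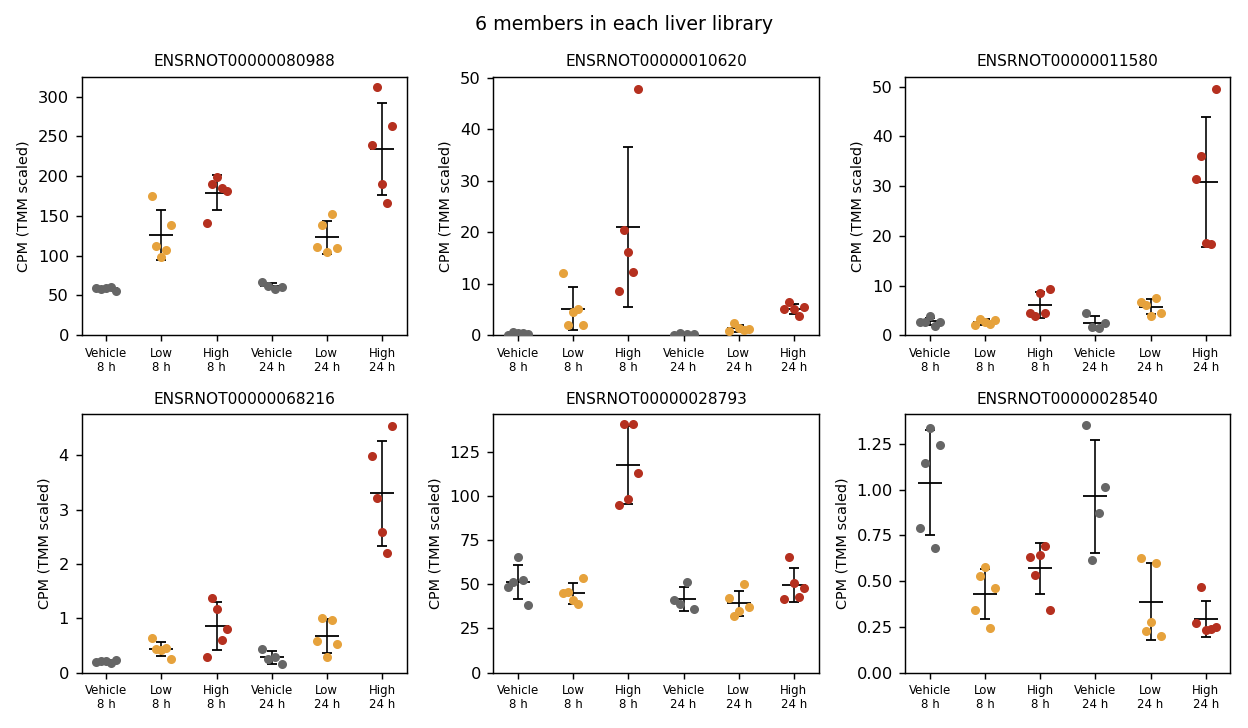
CPM on TMM-scaled library sizes of 6 members in each liver library (points), by dose and time, with the mean and SD of each group (bars) and axes that start at 0. ENSRNOT00000080988 was above vehicle in every treated library, ENSRNOT00000011580 stood at 18.4 to 49.5 CPM at 24 h after the high dose, ENSRNOT00000028793 stood apart at 8 h after the high dose, and ENSRNOT00000028540 was lowest on average in the high-dose livers at 24 h.

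The response to the high dose at 8 and 24 h was compared over livers that share no sample. Of the 23 members that rose at 8 h, 18 (78.3%) also rose at 24 h, and these were 37.5% of the 48 that rose at 24 h. Of all 2046 transcripts called higher at 8 h, 53.6% were also called higher at 24 h, which is 48.3% of the 2267 called then. A further 30 rose at 24 h alone and 5 at 8 h alone by these criteria. In the test of the difference itself, an interaction of dose and time at an edgeR adjusted p of no more than 0.01, 14 members had a higher effect at 24 h and none a higher effect at 8 h, 9.33% of the 150, with 4.78% of 18398 transcripts called in the first direction and 5.43% in the second. DESeq2 called 14 and 1, with 5.82% and 9.2% of all transcripts. An unadjusted p under 0.05 was found for 38 members, 25.3% of the 150, and for 32.2% of all transcripts tested. Of the 14, 11 were called higher at 24 h, and the other 3 (ENSRNOT00000001118, ENSRNOT00000009627, and ENSRNOT00000028474, the last named after its values were seen) were called lower at 8 h and not called at 24 h. ENSRNOT00000011580 was among the 14, with an interaction of 2.48 ± 0.52 on the log2 scale (edgeR adjusted p = 0.00278). For ENSRNOT00000010620, whose fold change was larger at 8 h, the interaction was -1.65 ± 0.80 (edgeR adjusted p = 0.167). The count was 8 without vehicle replicate 4 at 24 h, 9 without vehicle replicate 5 or high-dose replicate 5 at 24 h, and 10 with MS-1 included, of which 9 were higher at 24 h.

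In all 4 comparisons with vehicle, 53 different members rose at least once, 3 rose in every one, 6 fell at least once, and 19 were tested in none. For the order of the doses, the 150 transcripts were chosen anew from the vehicle samples of the other time, so that the rule did not use the vehicle livers compared. At 24 h, 87 of these 150 had means in the order vehicle, low dose, high dose from lowest to highest, and 15 had the opposite order. At 8 h the first order held for 60 and the opposite for 20. Over all transcripts tested, a base without those too low to test, 38.1% and 31.5% had these orders at 24 h. At 8 h these shares were 27.8% and 28.1%.

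Summed over the 150 members, the level in the liver was 756 ± 148 CPM (SD, n = 5) in vehicle at 8 h and 724 ± 55.4 CPM (SD, n = 4) in vehicle at 24 h. It was 882 ± 38.97 CPM after the low dose and 1233 ± 163 CPM after the high dose at 8 h, and 1001 ± 99.6 CPM and 1624 ± 299 CPM at 24 h (SD, n = 5 each). The high-dose livers at 24 h spanned 1350 to 1988 CPM and the vehicle livers 650 to 772 CPM, a 2.24-fold difference of the means, which was 2.55-fold without the 10 most abundant members. The rule had used these vehicle livers, and for the 150 transcripts chosen from the vehicle samples at 8 h alone the sums were 657 ± 68.6 CPM in vehicle (SD, n = 4) and 1418 ± 264 CPM after the high dose (SD, n = 5), a 2.16-fold difference without overlap. At 8 h, with the transcripts chosen from the vehicle samples at 24 h, the high-dose sum was 1.45 times vehicle. The groups overlapped, with 834 to 1140 CPM in vehicle and 1107 to 1495 CPM after the high dose. For the 150 members at 8 h, vehicle liver MS-16 stood at 1017 CPM and the other vehicle livers at 660 to 713 CPM. The high-dose livers at 8 h spanned 987 to 1419 CPM. The number of members with at least 10 CPM went from a mean of 14.25 per vehicle library to 33.2 per high-dose library at 24 h. In deposited TPM the sums differed by 4.21-fold, on a scale where the median of all transcripts tested was higher by 1.05 (log2) after the high dose.

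The high-dose livers at 24 h differed among themselves. Of the 48 members that rose, 23 were highest in MS-26 and 19 in MS-6, and 21 each were lowest in MS-24 and MS-91. MS-91, with its raised heart-alone transcripts, was the highest library for 2 of the 48, and the sum of all members spanned 1350 to 1988 CPM without it too. The 10 most abundant members varied in their response, with log2 fold changes from -1.01 to 2.28 at 24 h after the high dose, and 2 of them rose. At the other end, 21 members stayed under 1 CPM in all 30 liver libraries, and 1 of these had no count in any.

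The same values were taken for 2 neighboring sets, the 150 most abundant transcripts of kidney alone and of heart alone by analogous limits. At 24 h after the high dose, 14 kidney-alone transcripts rose and 28 fell with 84 tested, and 15 heart-alone transcripts rose and 4 fell with 74 tested. For high against low dose at 24 h the numbers were 7 and 13 for kidney alone and 5 and 2 for heart alone, compared with 24 and 1 for the 150 members. The summed CPM of the kidney-alone set was 0.956 times vehicle at 24 h after the high dose, and that of the heart-alone set 1.24 times, or 1.06 times without MS-91. The difference between the sets was not tested, and fewer members of the neighboring sets passed the filter on low counts.

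**Figure D5:**
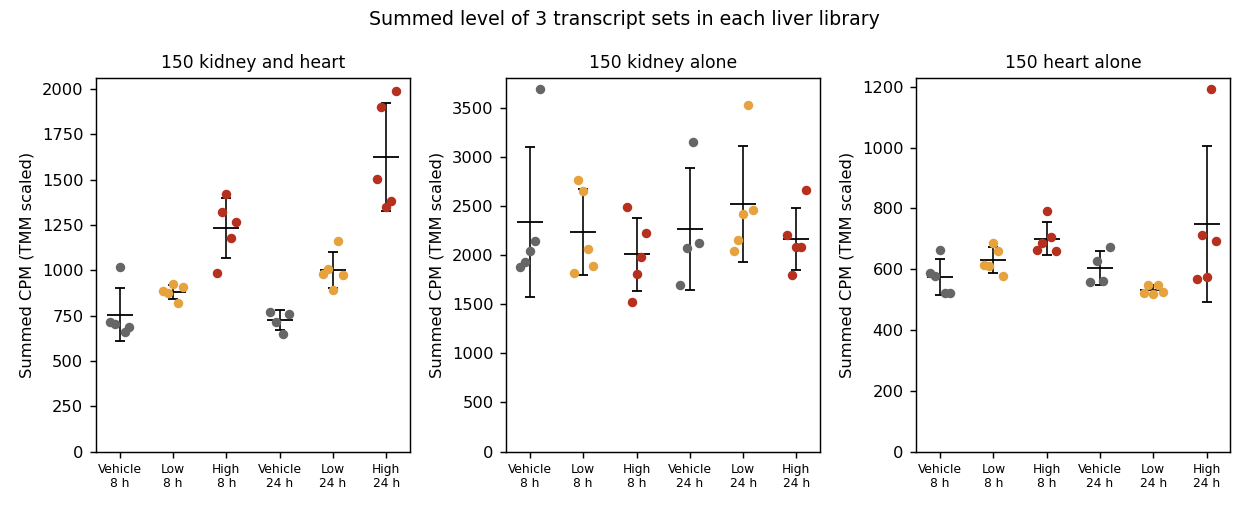
Summed CPM of the 150 members (left), of 150 kidney-alone transcripts (center), and of 150 heart-alone transcripts (right) in each liver library, with the group mean and SD and axes that start at 0. The members lie at 650 to 772 CPM in vehicle and 1350 to 1988 CPM after the high dose at 24 h, the kidney-alone sums of the groups overlap, and 1 high-dose library stands apart in the heart-alone sum.

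The vehicle kidneys and hearts compared here had chosen the members for being abundant in them. In both organs edgeR called none higher after the high dose, and with members chosen from the vehicle samples of the other time it called 1 higher and 5 lower for the kidney at 8 h, 0 and 4 at 24 h, and 0 and 2 for the heart at 24 h. In the kidney, 4 members fell at 8 h and 4 at 24 h, 2.67% of the 150 each time, with 0.409% and 2.04% of all tested transcripts called lower and 1.09% and 2.15% called higher. At an unadjusted p under 0.05 stood 29.3% and 34.7% of the members, 44 and 52, against 23.8% and 28.2% of all transcripts tested. Of the 150 kidney-alone transcripts, also chosen from these vehicle kidneys, edgeR called 4 lower and 0 higher at 8 h. At 24 h it called 34 of them lower and 1 higher. An unadjusted p under 0.05 was found for 50 of them at 8 h and 96 at 24 h. Among the members, DESeq2 also called none higher, where it called 1.77% and 3.12% of all transcripts, and limma on log2(TPM + 1) called 2 higher at 24 h. ENSRNOT00000083453 (282 bases), which passed the filter only through the vehicle kidneys, fell at both times: at 8 h from 1.95, 3.28, 1.57, 1.93, and 2.39 CPM to 0.439, 0.427, 0.390, 0.385, and 0.651 CPM (log2 fold change -2.26 ± 0.29, edgeR adjusted p = 0.00112), and at 24 h by -1.87 ± 0.37 (edgeR adjusted p = 0.00629). ENSRNOT00000057953 fell at 8 h from 28.6 to 53.2 CPM in vehicle to 14.5 to 21.8 CPM, a log2 fold change of -1.18 ± 0.17 (edgeR adjusted p = 0.00293).

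ENSRNOT00000009344 fell in the kidney at 24 h from 32.4, 21.1, 19.3, 21.1, and 18.8 CPM to 9.67, 9.42, 7.94, 7.78, and 9.07 CPM (log2 fold change -1.39 ± 0.17, edgeR adjusted p = 0.00042). The kidney counts were small and moved with single libraries. At 8 h the count was 2 without high-dose replicate 2 or 5, 1 without high-dose replicate 3 or 4 or vehicle replicate 5, and 8 without vehicle replicate 2, and at 24 h it was 8 without high-dose replicate 4.

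In the heart, edgeR called no member at 8 h, where 26 members (17.3%, against 9.69% of all transcripts tested) had an unadjusted p under 0.05, DESeq2 also called none, and 0.0171% of all tested transcripts were called higher and 0% lower. At 24 h, 2 members fell and none rose by edgeR, 1.33% of the 150, against 0.245% of all tested transcripts lower and 0.677% higher. At an unadjusted p under 0.05 stood 62 members, 41.3% of the 150, against 20.9% of all transcripts tested. That base, unlike the members, was not chosen for abundance in the heart. Of the 150 heart-alone transcripts, also chosen from these vehicle hearts, 58 had such a p at 24 h and 22 at 8 h. For the members at 24 h, DESeq2 called 3 lower and none higher, with 0.495% and 1.14% of all transcripts. ENSRNOT00000023530 measured 346, 305, 336, 308, and 305 CPM in vehicle and 181, 95.4, 212, 149, and 142 CPM after the high dose (log2 fold change -1.04 ± 0.17, edgeR adjusted p = 0.0048). ENSRNOT00000027339 measured 21.3 to 30.1 CPM in vehicle and 8.998 to 15.1 CPM after the high dose (log2 fold change -1.004 ± 0.14, edgeR adjusted p = 0.00213). Without high-dose replicate 4 or vehicle replicate 1, 2, or 3, 1 member was called. The summed level of the members was 22021 ± 515 CPM in vehicle heart and 21966 ± 531 CPM in high-dose heart at 24 h, and 15949 ± 756 CPM and 15866 ± 475 CPM in kidney (SD, n = 5 each). In the heart at 24 h, 23 members (15.3%) had every high-dose library below every vehicle library, against 3.83% of all transcripts tested. Every one lay above in 7 members (4.67%), against 4.47% of all transcripts tested. Of the 150 means, 95 were lower. The edgeR log2 fold change was above 0 for 37% of the members tested and 49.4% of all transcripts tested. In the kidney at 24 h, 15 members (10%) had every high-dose library below, against 5.88% of all transcripts tested. Every one lay above in 8 members (5.33%), against 7.25% of all transcripts tested.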

How the data were processed

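RNA from liver, kidney, and heart was made into stranded, poly-A-enriched libraries and sequenced. The authors quantified each library with Kallisto 0.42.2 against the rat transcriptome of build Rnor_6.0 and deposited, for 65166 targets per library, an estimated count that is not normalized, its TPM, the target length, and the effective length. Of the targets, 40071 are transcripts and 25095 are genomic intervals. Samples were grouped by the labels.

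Estimated counts of the transcripts were rounded and tested in R 4.3.3 with edgeR 4.0.16 (default low-count filter, TMM scaling, quasi-likelihood test, Benjamini-Hochberg adjustment over all transcripts tested). Calls required an adjusted p at or below 0.01 together with a natural-log fold change of at least 0.60, a number taken from the study's effect-size limit. The interaction had no limit on size. Standard errors were derived from the test. CPM came from TMM-scaled library sizes, with one scaling per organ. TPM was used for the choice of members and the organ levels. In the liver the median log2 TPM ratio of all transcripts tested moved by up to 1.05 between doses, so levels across doses are given in CPM.

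The tests were tried on simulated counts first. The members, lists, and tests were chosen with earlier results of these data known. Without gene names, one rule named identifiers: the first member by the rule, and in each comparison the called members that rose most and fell most, up to 2 each way, provided that their groups did not overlap. The preset marker and gene lists need gene names and were not applied, nor were sequences matched. Alternatives were DESeq2 1.42.0, limma 3.58.1 on TPM, other filters, limits, and member rules, and leaving out each replicate. Covariates, a length limit on members, the joint removal of MS-91 and MS-23, and the sum over members chosen at the other time were chosen after seeing the data. Python 3.11.15 (pandas 2.3.3, numpy 2.4.6) made the tables, and matplotlib 3.10.9 the plots.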

Additional observations from a re-analysis of the deposited data

Results flagged for a closer look

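Of 66 groups of 4 or 5 values examined, 12 held a library that stood apart from the others by Dixon's criterion, which chance meets in about 1 of 20 groups. The heart-alone transcripts had a median of 2.63 CPM in MS-91 (high dose, 24 h) and 0.748 CPM in MS-94 (low dose, 8 h), each the highest liver of its group. The kidney-alone transcripts had a median of 2.52 CPM in MS-23 (low dose, 24 h) and 1.91 CPM in MS-94. The summed level of the 150 members was 1017 CPM in MS-16, above the other vehicle livers at 8 h.

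Among single members, ENSRNOT00000029660 stood apart at 38.9 CPM in MS-9, the library of the low dose at 8 h that nearly equals MS-1. ENSRNOT00000001118 stood apart at 0.212 CPM in MS-27 (high dose, 8 h), ENSRNOT00000074951 at 0.116 CPM in MS-20 (vehicle, 24 h), and ENSRNOT00000028540 at 0.467 CPM in MS-6 (high dose, 24 h). In the kidney, ENSRNOT00000083453 stood apart at 0.651 CPM in MS-57 (high dose, 8 h) and ENSRNOT00000009344 at 32.4 CPM in MS-31 (vehicle, 24 h). In the heart, ENSRNOT00000027339 stood apart at 30.1 CPM in MS-64 (vehicle, 24 h).

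The effect of the high dose in the liver differed between 8 and 24 h for 14 members in the edgeR test of the interaction.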

How the results depend on the processing

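Low counts limit what could be tested, since 20 of the 150 members missed the filter at 24 h after the high dose and 32 at 8 h. Shares of the 150 include members that were not tested, while shares of all transcripts are over those tested. No paired analysis was possible because the labels give the groups no shared replicate numbers. Of the counts of members called under other settings, 85 of 111 stayed within 1.5 times the reported count, as did 96 of 117 that left out a replicate. For named members, 134 of 159 values under other settings kept their direction and call, 23 lost the call, and 2 reversed, and 179 of 229 that left out a replicate kept both. The cause was not tested for the changes below, apart from those made by fewer or more members.

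With limma on log2(TPM + 1), the counts called moved to 33 for the low dose at 24 h, 0 for high against low at 8 h, 2 for the kidney at 8 h, and 46 for the interaction. With log2(TPM + 0.1) they moved to 13 and 67 for the low dose at 8 and 24 h, 99 for the high dose at 24 h, 0 for high against low at 8 h, 7 for the kidney and 1 for the heart at 24 h. ENSRNOT00000006947 reversed to 0.048 and 0.120 on these scales. DESeq2 gave 10 for high against low at 8 h. The low dose at 24 h gave 5 with MS-1 and 8 with the interval share as a covariate, and the kidney at 8 h gave 2 with library number above 90 as a covariate. Without a limit on the fold change the kidney gave 14 and the heart 12 at 24 h. The 75 highest members gave 5 for the low dose at 8 h, 17 and 29 for the high dose at 8 and 24 h, 1 and 11 for high against low, 0 and 1 for the kidney, and 1 for the heart at 24 h, and the 300 highest gave 14 for the kidney and 7 for the heart at 24 h. Of the 150 members, 69 stayed with a ratio of 20, 98 with kidney and heart within 2-fold, and 53 with 1 TPM added to the liver mean. The summed level at 24 h after the high dose was 4.21 times vehicle in TPM and 2.24 times in CPM, a scale chosen after seeing the data, and 2.16 times in CPM with members chosen at 8 h alone.

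Leaving out each replicate gave 6 to 11 and 12 to 17 members called for the low dose at 8 and 24 h, 19 to 29 and 40 to 56 for the high dose, 1 to 4 and 10 to 27 for high against low, 1 to 8 and 3 to 8 for the kidney, 0 and 1 to 2 for the heart, and 8 to 15 for the interaction. The ratio of summed TPM ran from 3.83 to 4.803.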
